A study of Homo sapiens with 8 samples.

Results

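The 10 genes described here belong to the actomyosin cytoskeleton and to the transcription programs that respond to it. They were MYL9, VCL, ACTN1, TAGLN and TPM1, which encode parts of the contractile apparatus, the transcription factor gene SRF, and CYR61, CTGF, ANKRD1 and AMOTL2, which are well-known target genes of YAP. The symbols were looked up in the table of read counts, where all 10 of 10 were found among 15745 genes and all 10 were among the 12910 genes with enough counts to be tested. The genes were selected on earlier results of the same comparison, the fold changes of I/R+Rk2 over I/R+DMSO in these libraries, so their own differences between the groups are given as a description, without p-values. RNA-seq was measured in 8 libraries of wild-type HuH7, an established human hepatoma cell line. All cells, in both groups, had 6 h of oxygen-glucose deprivation at 1% oxygen followed by 6 h of reoxygenation (OGD/R). For those last 6 h the cells were given either the solvent DMSO (I/R+DMSO, n = 4) or 20 µM of the ginsenoside Rk2, a saponin from ginseng (I/R+Rk2, n = 4). The comparison therefore asks how the level of each transcript differed with Rk2 after OGD/R, in 1 tumour cell line, and cells without OGD/R were not analysed here.

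Actin filaments, cross-linked by alpha-actinin and coated by tropomyosin, slide against non-muscle myosin and pull on adhesions to the matrix. The state of these filaments is read in the nucleus in at least a pair of ways. When monomeric actin is used up by filament assembly, the coactivators MRTF-A and MRTF-B (genes MKL1 and MKL2) are released, enter the nucleus and activate SRF at CArG boxes, and many of the genes switched on encode actin-binding proteins. The coactivators YAP and TAZ (YAP1 and WWTR1) respond to cell spreading and tension, are held out of the nucleus by the Hippo kinases LATS1 and LATS2, and activate transcription through the TEAD factors, often next to AP-1 sites. In liver, both programs are best known from hepatic stellate cells and from regenerating or tumour hepatocytes.

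Promoter sequences are shown for the patterns that these factors bind, which did not set the classes of the 10 genes. For 7 of the 10 genes RefSeq (GRCh38.p14) gave 12 promoters, each running from 250 bases before to 50 bases after an annotated start. They were searched on both strands for a CArG box (CC, then any 6 of A or T, then GG), for the TEAD core GGAATG, which reads CATTCC on the other strand, and for the AP-1 site TGANTCA. Of 35116 promoters of the same 300 bases, 1.29% held the CArG pattern, 14% the TEAD core and 7.71% the AP-1 pattern. No entry was matched for MYL9, TAGLN or CYR61. Each sequence is written 5′ to 3′ on the strand of its gene, with the matches in capitals.
SRF, chr6:43171209-43171268 (+), a pair of CArG boxes: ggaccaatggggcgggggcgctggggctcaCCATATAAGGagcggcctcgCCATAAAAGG
ACTN1, chr14:68977685-68977767 (-), a CArG box and a TEAD core: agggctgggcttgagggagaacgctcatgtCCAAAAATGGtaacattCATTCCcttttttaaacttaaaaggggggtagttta
VCL, chr10:73997915-73997980 (+), a TEAD core: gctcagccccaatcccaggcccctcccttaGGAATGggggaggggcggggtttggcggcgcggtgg
CTGF, chr6:131951432-131951571 (-), 3 TEAD cores: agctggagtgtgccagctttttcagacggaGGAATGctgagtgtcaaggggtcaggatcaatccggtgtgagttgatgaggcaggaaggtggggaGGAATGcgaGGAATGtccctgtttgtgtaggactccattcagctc
ANKRD1, chr10:90921180-90921337 (-), a TEAD core, an AP-1 site and a further TEAD core: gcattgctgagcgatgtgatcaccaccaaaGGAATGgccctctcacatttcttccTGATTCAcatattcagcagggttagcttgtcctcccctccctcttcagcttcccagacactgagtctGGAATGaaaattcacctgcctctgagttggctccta
AMOTL2, chr3:134374481-134374546 (-), a TEAD core: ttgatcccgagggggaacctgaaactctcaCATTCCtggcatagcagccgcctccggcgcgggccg

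The CArG boxes of SRF lay at positions -30 to -21 and -10 to -1 relative to its first annotated start. In CTGF the TEAD cores began at -169, -104 and -95, and the last 2 are 3 bases apart. In ANKRD1 they began at -220 and -128, with the AP-1 site between them at -195. ACTN1 has 4 annotated starts in this table, and only the third had a match. Among all 12 promoters, none of the patterns was present in that of TPM1, in the other ACTN1 promoters, or in the second SRF and the first AMOTL2 promoter. A match is a string of letters and not a measured binding site, and binding was not measured.

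**Figure D1:**
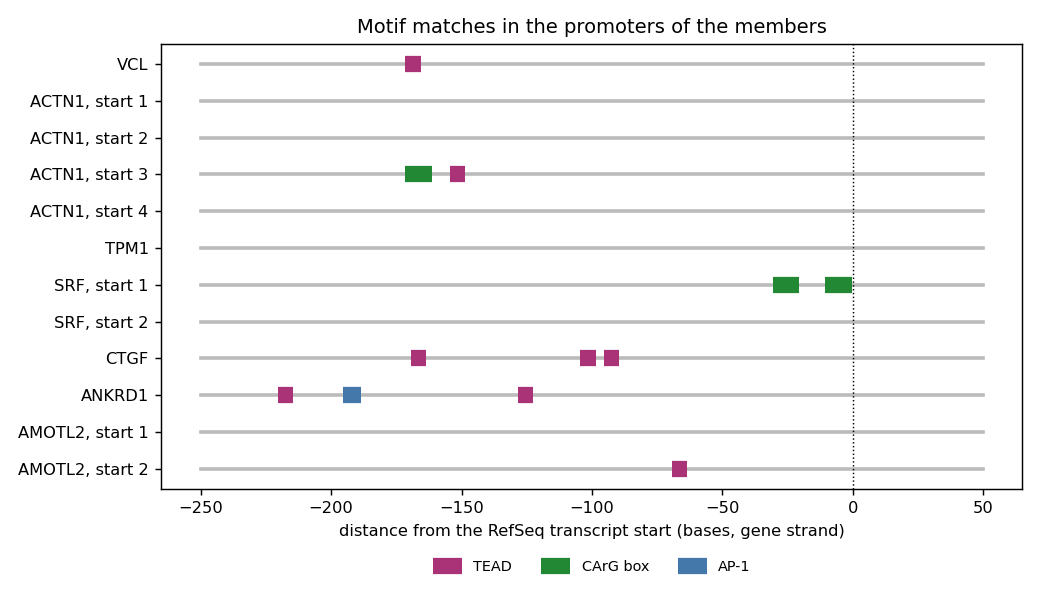
Positions of the CArG, TEAD and AP-1 patterns in the 12 RefSeq promoters of 7 of the 10 genes. The horizontal axis is the distance in bases from the annotated start and each row is a promoter. SRF had a pair of CArG boxes close to its start, CTGF had 3 TEAD cores, and TPM1 had no match.

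In every one of the 10 genes the mean level was lower with Rk2 than with DMSO. Levels of a gene are given as CPM, the counts scaled to a common library total after TMM normalization, and differences as log2 fold changes of I/R+Rk2 over I/R+DMSO from edgeR. The differences ranged from a log2 fold change of -1.02 in TAGLN to -0.16 in SRF, with a median of -0.31, against a median of -0.00205 over all 12910 genes. In the fit over all genes, 6 of the 10 (MYL9, TAGLN, TPM1, SRF, CYR61 and CTGF) were called lower at an adjusted p below 0.05 and none was called higher, where 7.24% of all tested genes were called lower and 11.0% higher. In 8 of the 10 genes the highest I/R+Rk2 library was below the lowest I/R+DMSO library, which was so for 12.9% of all tested genes. In FPKM 5 of the 10 genes (MYL9, TAGLN, TPM1, SRF and CTGF) were apart in this way, where 8.08% of the genes whose mean FPKM reached 0.5 were. Since the choice of the genes used this contrast, nothing is read from these shares. In bulk RNA, fewer cells with a transcript and less of it per cell cannot be told apart.

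**Figure D2:**
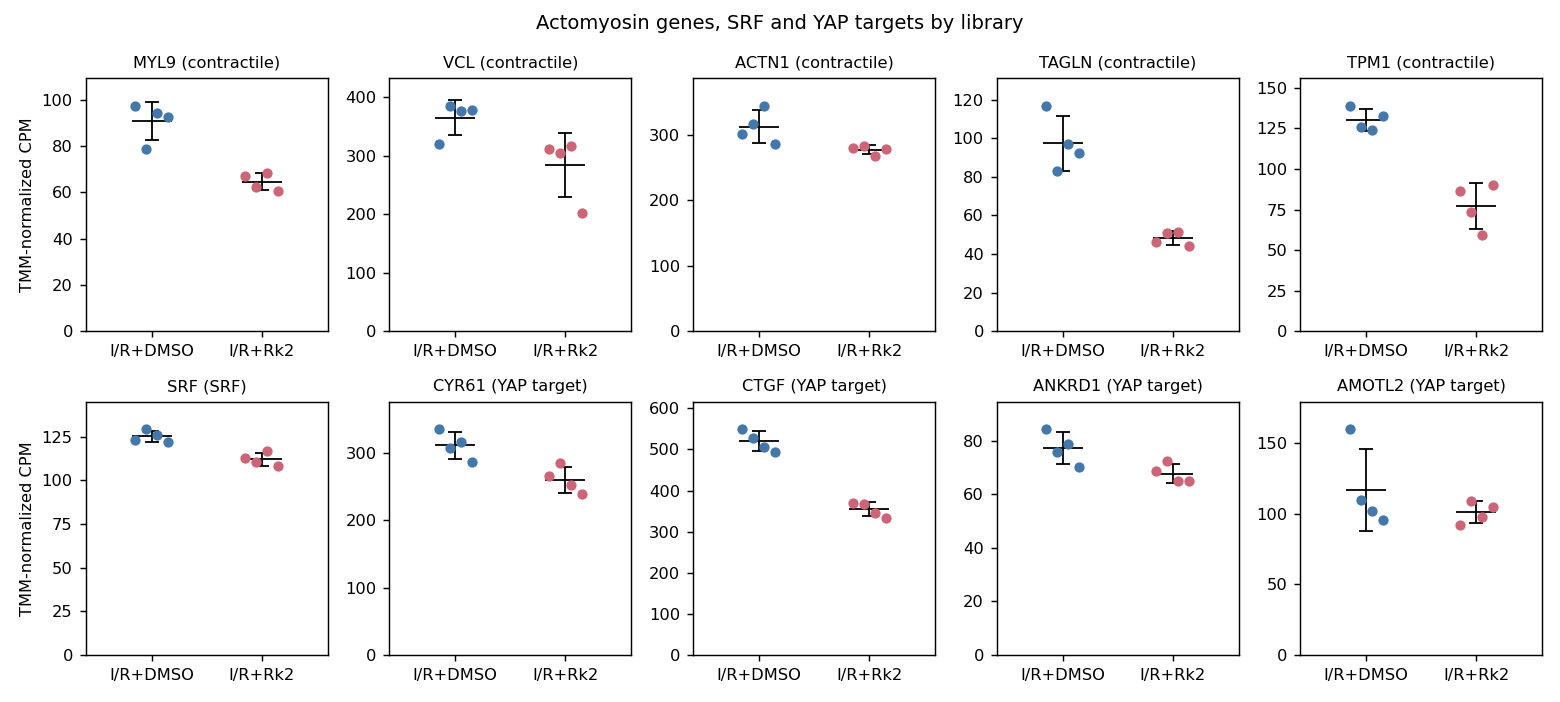
Normalized CPM of the 10 genes in each of the 8 libraries, with 1 panel per gene and a linear axis from 0. Points are libraries and the horizontal marks and bars are the mean and SD of 4. In TAGLN and TPM1 the groups stand far apart, and in ANKRD1 and AMOTL2 they overlap.

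TAGLN encodes transgelin (SM22), an actin-binding protein and a classical SRF target of smooth muscle. Its level was 117, 82.8, 97.2 and 92.6 CPM in the I/R+DMSO libraries and 46.2, 50.8, 51.5 and 44.2 CPM in the I/R+Rk2 libraries. All 4 libraries with Rk2 lay well below all 4 with DMSO. The means were 97.4 ± 14.4 and 48.2 ± 3.53 CPM (SD, n = 4 in each group), a log2 fold change of -1.02 with a standard error of 0.107, so the level with Rk2 was 2.02-fold lower. Replicate 1 of I/R+DMSO was the highest library in CPM, and it stood further apart in the FPKM of TAGLN, at 86.5 against 38.9 to 53.8 in the other three.

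TPM1 encodes a tropomyosin, the coiled-coil protein that lies along the actin filament and controls the access of myosin. It was measured at 139, 126, 124 and 132.5 CPM with DMSO and at 86.6, 73.4, 59.1 and 90.1 CPM with Rk2. The DMSO libraries were tight and the Rk2 libraries spread more widely, without meeting them. The log2 fold change was -0.75 (SE 0.125), a 1.69-fold lower level. TAGLN and TPM1 were the only members of the 10 called lower with a fold above 1.5, where 0.581% of all tested genes were.

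MYL9 encodes a regulatory light chain of smooth muscle and non-muscle myosin, the subunit whose phosphorylation sets off contraction. The I/R+DMSO libraries held 97.5, 78.9, 94.1 and 92.6 CPM of MYL9 and the I/R+Rk2 libraries 66.95, 62.2, 68.2 and 60.7 CPM. The groups did not overlap, and the mean with Rk2 was 71.1% of that with DMSO (log2 fold change -0.49, SE 0.0745).

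VCL and ACTN1 encode vinculin, which links talin to actin at focal adhesions, and alpha-actinin, which cross-links actin filaments. Vinculin transcripts were at 320, 386, 377 and 378 CPM with DMSO and 312, 305, 317 and 202 CPM with Rk2. The groups were set apart by a narrow margin, and replicate 4 of I/R+Rk2 lay far below the other three. The log2 fold change of VCL was -0.36 (SE 0.144) and it was -0.23 without that library. In FPKM the VCL groups overlapped, at 40.6 to 55.0 with DMSO and 31.5 to 45.4 with Rk2. ACTN1 was at 302, 317, 345 and 286 CPM with DMSO and 281, 283, 268 and 279 CPM with Rk2. Its groups did not overlap in CPM, with a mean at 88.9% of DMSO (log2 fold change -0.17, SE 0.0580), but they did in FPKM, at 95.4 to 113.6 with DMSO and 90.2 to 106 with Rk2. Neither gene was called at the threshold.

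SRF itself, the MADS-box factor that binds the CArG box and whose own promoter holds the pair of boxes shown above, differed little. Its level was 123, 129, 126 and 122 CPM with DMSO and 112.6, 110.4, 117 and 108 CPM with Rk2. The replicates were close to each other, so that the groups were apart although the mean with Rk2 was 89.6% of that with DMSO (log2 fold change -0.16, SE 0.0395). Before any correction for gene length, SRF had the smallest difference of the 10 genes and the smallest standard error. Its call was lost in 5 of the 8 fits that left out 1 library, and stood only without replicate 1 or 4 of I/R+DMSO or replicate 3 of I/R+Rk2.

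Of the YAP targets, CTGF (connective tissue growth factor, a secreted matricellular protein) differed most. It was at 549, 528, 507 and 494 CPM with DMSO and at 369, 368, 346 and 334 CPM with Rk2. The distance between the groups was several times the spread within them, with a log2 fold change of -0.55 (SE 0.0495) and a level 1.47-fold lower. CTGF had the most reads of the 10 genes, with up to 11247 counts in a library, and TAGLN had the fewest, with at least 851.

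CYR61, a matricellular protein of the same family as CTGF, was at 335, 308, 316 and 287 CPM with DMSO and 265, 284, 253 and 239 CPM with Rk2. The lowest DMSO library and the highest Rk2 library were close in CPM (log2 fold change -0.26, SE 0.0658), and in FPKM they crossed, at 104.7 and 105.8. The call of CYR61 stood only without replicate 4 of I/R+DMSO or replicate 2 of I/R+Rk2 when 1 library was left out, and was lost in the other 6 of 8 fits. MYL9, TAGLN, TPM1 and CTGF were called in all 8 of these fits and in all 8 of the other settings tried.

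ANKRD1 and AMOTL2 did not separate the groups. ANKRD1, a nuclear ankyrin-repeat protein first studied in heart muscle, was at 84.3, 75.7, 78.9 and 70.0 CPM with DMSO and at 68.5, 72.3, 64.8 and 64.8 CPM with Rk2 (log2 fold change -0.19, SE 0.0665). AMOTL2, an angiomotin that binds YAP and holds it in the cytoplasm, was at 160, 110, 102 and 95.4 CPM with DMSO and at 91.9, 109, 97.8 and 105 CPM with Rk2. In AMOTL2 the difference rested on 1 library. With replicate 1 of I/R+DMSO the log2 fold change was -0.21 (SE 0.159), and without it -0.021.

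**Figure D3:**
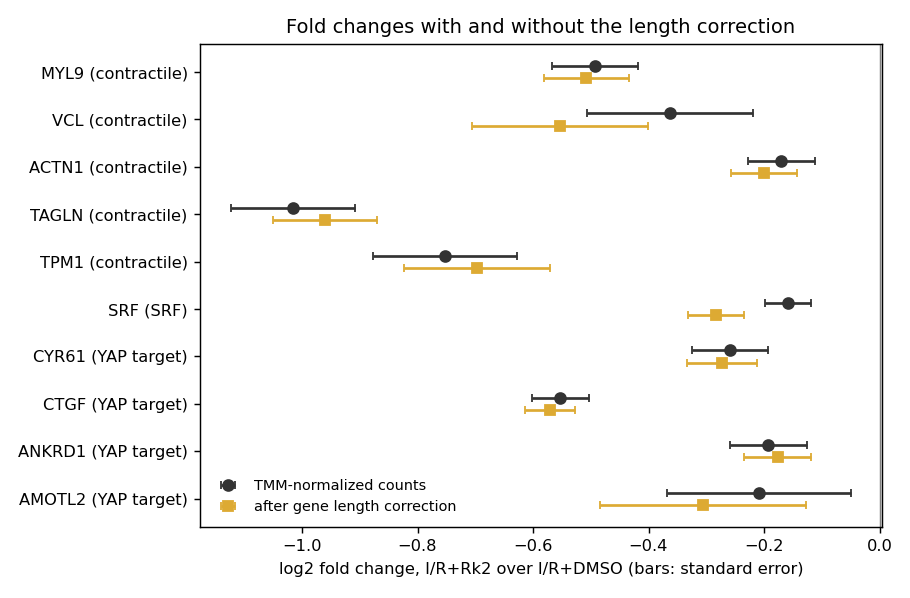
Log2 fold change of I/R+Rk2 over I/R+DMSO for the 10 genes from the fit over all genes, before and after a correction for gene length. Bars are standard errors. All 10 lie below 0, from -1.02 in TAGLN to -0.16 in SRF, and VCL moves furthest with the correction, from -0.36 to -0.55.

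Between genes, levels are compared per length, as FPKM. In I/R+DMSO the order was led by CTGF, with 183 ± 7.09 FPKM (SD, n = 4). CYR61 (113 ± 6.26 FPKM) and ACTN1 (106 ± 8.81 FPKM) followed and overlapped each other. TPM1, TAGLN and VCL came next, with means of 65.8, 56.9 and 49.0 FPKM, each overlapping its neighbour. The lowest were MYL9, ANKRD1, AMOTL2 and SRF, from 32.8 to 24.6 FPKM, and again neighbours overlapped. Libraries did not overlap between CTGF and CYR61, between ACTN1 and TPM1, or between VCL and MYL9. So the contractile genes and the YAP targets were mixed along this order, and a class did not stand for a level.

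The contractile genes were set against the YAP targets by their mean log2 CPM in each library. The contractile mean minus the YAP target mean was -0.37, -0.27, -0.15 and -0.09 in the I/R+DMSO libraries and -0.41, -0.56, -0.45 and -0.52 in the I/R+Rk2 libraries. The groups did not overlap, but the margin between replicate 1 of each group was narrow. The mean difference between the classes was -0.22 ± 0.127 with DMSO and -0.49 ± 0.0681 with Rk2 (SD, n = 4 in each group). So the contractile mean was lower by a further 0.27 on the log2 scale than the YAP target mean. Leaving out a library gave values of -0.32 to -0.22 for this change. By class, 3 of 5 contractile genes and 2 of 4 YAP targets were called lower, with median log2 fold changes of -0.49 and -0.23, and 5 of 5 against 2 of 4 separated the groups in CPM, or 3 of 5 against 1 of 4 in FPKM. Over all tested genes the shares were 7.24% called lower and 12.9% apart and lower in CPM. These are descriptions of chosen genes, and the classes overlapped, since CTGF was lower by more than VCL, ACTN1 and MYL9. Only TAGLN (log2 fold change -1.02) and TPM1 (-0.75) were lower by more than CTGF (-0.55), so the difference in means was not shared by all contractile genes.

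Over all genes, fold changes followed gene length (a Spearman correlation of 0.388 across genes, which are not independent replicates), with longer genes higher with Rk2. After a correction for length the correlation was -0.0053. The 10 genes have lengths, implied by the counts and FPKM, from 1908 bases in TPM1 to 7558 in VCL, around the median of 2920 for tested genes. Corrected log2 fold changes were -0.96 for TAGLN, -0.70 for TPM1, -0.55 for VCL, -0.51 for MYL9 and -0.20 for ACTN1, and 5 of 5 contractile genes were then called lower. VCL and ACTN1 were just below the threshold, with adjusted p-values of 0.0430 and 0.0469 in edgeR with the correction. The corrected fit was not repeated with a library left out, such as replicate 4 of I/R+Rk2, where VCL was lowest. SRF came to -0.28, CTGF to -0.57, AMOTL2 to -0.31, CYR61 to -0.27 and ANKRD1 to -0.18. With it 8 of 10 genes were called lower, where 9.62% of all tested genes were.

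In this and the following gene lists, fell and rose mean called lower and called higher. The lists were chosen with earlier results of these data known, so nothing is read from their shares. Of 18 other known MRTF-SRF targets, 14 were tested, 10 of them fell, 1 rose and 3 were not called. Over all tested genes, 7.24% were called lower and 11.0% higher. The median log2 fold change of the 14 targets was -0.26. TPM2, a further tropomyosin, fell from 330 ± 34.5 to 243 ± 5.73 CPM (SD, n = 4 in each group), a log2 fold change of -0.44 (edgeR adjusted p = 0.00521). ZYX, the adhesion protein zyxin, fell by 0.36 on the log2 scale (edgeR adjusted p = 0.00565). ACTB, cytoplasmic beta-actin, fell from 4371 ± 259 to 3483 ± 67.2 CPM (SD, n = 4 in each group), a log2 fold change of -0.33 (edgeR adjusted p = 0.00366). FHL2, a LIM protein, fell by 0.33 (edgeR adjusted p = 0.0264), and TGFB1I1 (Hic-5) by 0.84 (edgeR adjusted p = 0.0282) at a level of only 1.39 CPM with DMSO. The other 5 that fell, named with their values known, were ACTG1, CNN2, FLNA, MYH9 and VASP, with log2 fold changes of -0.27 to -0.21. CNN1, calponin of smooth muscle and also named with its value known, was not called (log2 fold change -1.09, edgeR adjusted p = 0.0572). Its level was 1.14 ± 0.395 CPM with DMSO and 0.541 ± 0.210 CPM with Rk2 (SD, n = 4 in each group). CALD1, likewise named with its value known, and TPM4 were not called either. CALD1 had a log2 fold change of 0.26 (edgeR adjusted p = 0.371), and TPM4 of -0.24 (edgeR adjusted p = 0.310). Of the 14 tested targets, 12 had a log2 fold change below 0. TES, which encodes the focal adhesion protein testin, rose from 107 ± 7.44 to 142 ± 11.04 CPM (SD, n = 4 in each group), with a log2 fold change of 0.41 (edgeR adjusted p = 0.00788).

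ACTA2, the smooth muscle actin gene, was outside the test with 0 to 2 counts per library, FHL1 with 0 to 8 and LMOD1 with 0 to 11. After the length correction 8 of the 10 were still called, where 9.62% of all tested genes were called lower and 7.96% higher, and the calls of ACTG1 (adjusted p = 0.0607) and CNN2 (adjusted p = 0.156 in edgeR with the correction) were lost. The number that fell was 6 without replicate 2 or 3 of I/R+DMSO or replicate 2 or 4 of I/R+Rk2, and FHL2 and TGFB1I1 each lost their call in 6 of 8 such fits. With limma on log2(FPKM + 1) it was 3, where 2.62% of the genes in that fit were called lower.

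Of 5 tested partners of SRF, 1 fell, 1 rose and 3 were not called. Over all tested genes, 7.24% were called lower and 11.0% higher. MKL1 fell slightly, from 59.6 ± 1.64 to 52.8 ± 2.18 CPM (SD, n = 4 in each group), with a log2 fold change of -0.18 (edgeR adjusted p = 0.0354). That call stood only without replicate 1 of either group when a library was left out, and with limma on log2 FPKM its sign turned, to 0.093 or 0.10. ELK4, a ternary complex factor that binds SRF in place of MRTF, rose by 0.42 on the log2 scale, from 29.7 ± 2.36 to 39.8 ± 0.796 CPM (SD, n = 4 in each group, edgeR adjusted p = 0.00472), and by 0.21 after the length correction. MKL2 was not called, with a log2 fold change of 0.43 (edgeR adjusted p = 0.556). Of the early genes that SRF drives through ternary complex factors, such as FOS and EGR1, 7 of 8 were tested and none was called by edgeR with all libraries and no length correction. In that fit 2 were at an unadjusted p below 0.05, JUNB (log2 fold change -0.17, edgeR adjusted p = 0.0550) and MCL1 (-0.10, edgeR adjusted p = 0.0706). In both the groups did not overlap and the level was lower with Rk2, which was so for 12.9% of all tested genes. DESeq2 called 2 lower, edgeR with the length correction 1, which was MCL1 (-0.20, adjusted p = 0.00193), and edgeR without replicate 1 of I/R+DMSO 1. Their median log2 fold change was 0.08. FOS was at 7.24 ± 0.823 CPM with DMSO and 7.65 ± 1.04 CPM with Rk2, and EGR1 at 40.7 ± 2.63 and 43.1 ± 2.41 CPM (SD, n = 4 in each group). These 4 genes were named with their values known.

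**Figure D4:**
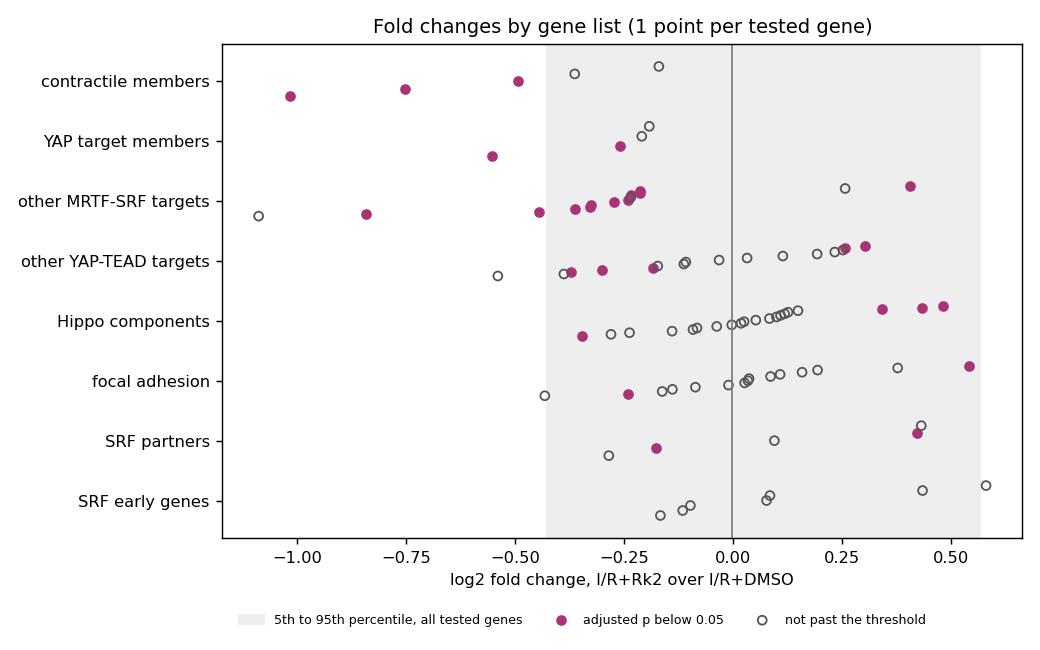
Log2 fold changes of I/R+Rk2 over I/R+DMSO for each tested gene of the member classes and of the related gene lists. Each point is a gene, filled where it was called at an adjusted p below 0.05, the line is the median of all 12910 tested genes and the shading spans their 5th to 95th percentile, -0.43 to 0.57. The other MRTF-SRF targets have a median of -0.26, and the other YAP-TEAD targets of -0.07. The lists were chosen with earlier results of these data known.

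Of 18 other YAP-TEAD targets, 16 were tested, 3 fell, 2 rose and 11 were not called, with 7.24% and 11.0% of all tested genes called lower and higher. The median log2 fold change was -0.07. NUAK2, a kinase of the AMPK family, fell from 51.7 ± 2.68 to 39.9 ± 1.89 CPM (SD, n = 4 in each group), with a log2 fold change of -0.37 (edgeR adjusted p = 0.00476), and kept its call in every fit that left out a library. ARHGEF17, a guanine nucleotide exchange factor, fell by 0.30 (edgeR adjusted p = 0.0341) and TGFB2, a TGF-beta ligand, by 0.18 (edgeR adjusted p = 0.0246, and by 0.34 after the length correction). ASAP1, an ARF GTPase activator, rose by 0.30 (edgeR adjusted p = 0.0293), and LATS2, which is both a target and an inhibitor of YAP, by 0.26, from 56.5 ± 5.94 to 67.5 ± 0.865 CPM (SD, n = 4 in each group, edgeR adjusted p = 0.0470). Both higher calls were lost after the length correction, where 6 fell and none rose, with 9.62% and 7.96% of all tested genes called lower and higher and the median of the list at -0.13. They were also lost without replicate 3 of I/R+DMSO or without replicate 1, 3 or 4 of I/R+Rk2. With 1 library left out, ARHGEF17 was called only without replicate 1 of I/R+DMSO, TGFB2 only without replicate 1 or 4 of I/R+DMSO or replicate 4 of I/R+Rk2, and the number that fell was 1 without replicate 3 of I/R+DMSO or replicate 1, 2 or 3 of I/R+Rk2.

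Within the Hippo pathway, 1 of 20 tested genes fell and 3 rose, which is near the 7.24% and 11.0% of all tested genes and is given as a description. The median log2 fold change was 0.04. TEAD4, a DNA-binding partner of YAP, fell from 36.2 ± 1.21 to 28.5 ± 0.182 CPM (SD, n = 4 in each group), with a log2 fold change of -0.35 (edgeR adjusted p = 0.00278), and was called in each of the 16 other fits. The kinase gene LATS1 rose from 43.1 ± 2.29 to 54.55 ± 3.94 CPM (log2 fold change 0.34, edgeR adjusted p = 0.0114). TAOK1, a kinase upstream of MST1 and MST2, rose by 0.48 (edgeR adjusted p = 0.0224) and MOB1B, a cofactor of the LATS kinases, by 0.43 (edgeR adjusted p = 0.0432). None of these 3 calls stood after the length correction, with adjusted p-values of 0.0768 for LATS1, 0.0607 for TAOK1 and 0.0933 for MOB1B in edgeR. Without replicate 1, 2 or 3 of I/R+DMSO or replicate 3 or 4 of I/R+Rk2, 1 of the 3 was called. The coactivators showed no call. YAP1 was at 107.5 ± 10.7 CPM with DMSO and 116 ± 5.52 CPM with Rk2 (SD, n = 4 in each group), a log2 fold change of 0.11 (edgeR adjusted p = 0.347), which came to -0.016 after the length correction. WWTR1 had a log2 fold change of 0.02 (edgeR adjusted p = 0.827), and its sign also turned, to -0.072, with that correction.

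Among 15 focal adhesion genes 1 fell and 1 rose, which is also near the shares of all tested genes. ILK, the integrin-linked kinase, fell by 0.24 on the log2 scale (edgeR adjusted p = 0.0114, and 0.0546 after the length correction), and the kinase gene SRC rose from 24.9 ± 2.15 to 36.2 ± 0.868 CPM (SD, n = 4 in each group), by 0.54 (edgeR adjusted p = 0.00223).

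Of 17 relatives of the 10 genes listed, 9 were tested, 3 of them were called lower and none higher, where 7.24% of all tested genes were called lower. They were MYL12B, TAGLN2 and TPM2, which is also counted among the MRTF-SRF targets. TAGLN2, the transgelin of non-muscle cells, fell from 422 ± 43.3 to 329 ± 18.2 CPM (SD, n = 4 in each group), with a log2 fold change of -0.36 (edgeR adjusted p = 0.0165), which is smaller than that of TAGLN. MYL12B, a regulatory light chain like MYL9, fell by 0.28 on the log2 scale (edgeR adjusted p = 0.0224), and lost its call without replicate 2, 3 or 4 of I/R+Rk2. MYL12A was not called, with a log2 fold change of -0.18 (edgeR adjusted p = 0.116), and neither were ACTN4 with -0.18 (edgeR adjusted p = 0.338) and TPM4 with -0.24 (edgeR adjusted p = 0.310). AMOTL1, the relative of AMOTL2, had a log2 fold change of 0.15 (edgeR adjusted p = 0.301), which came to -0.10 with the length correction. Stretches of 50 bases that a gene shares with another gene's transcripts made up 0% of the transcripts of MYL9, TAGLN, SRF, CYR61, CTGF and ANKRD1. They made up 1.26% for VCL, 1.2% for TPM1, 0.609% for ACTN1 and 2.42% for AMOTL2, the last of these in the pseudogene RPL39P5, which lies within it.

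In the GENCODE v29 annotation of GRCh38 the genes lie at chr20:36541484-36551447 (MYL9, + strand), chr10:73995193-74121363 (VCL, +), chr14:68874143-68979440 (ACTN1, -), chr11:117199321-117204782 (TAGLN, +), chr15:63042632-63071915 (TPM1, +), chr6:43171299-43181507 (SRF, +), chr1:85580761-85583962 (CYR61, +), chr6:131948176-131951373 (CTGF, -), chr10:90912096-90921276 (ANKRD1, -) and chr3:134355874-134375479 (AMOTL2, -). Exons on the opposite strand overlap those of VCL (AP3M1), TAGLN (PCSK7), TPM1 (TPM1-AS and AC079328.2) and CTGF (AL133346.1), and exons of the pseudogene HMGN1P3 overlap those of ACTN1 on the same strand. The sources used here do not say whether reads were counted by strand, so these levels may hold reads of a neighbour. AP3M1 was at 94.1 to 117 CPM with DMSO and 118 to 121 CPM with Rk2, and PCSK7 at 35.0 to 39.9 and 30.02 to 37.9 CPM, and neither was called (log2 fold changes of 0.14 and -0.12).

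Markers of the cell line and of other cell types were compared, because several of the 10 genes are abundant in fibroblasts and smooth muscle. The 8 hepatocyte markers, ALB and AFP among them, were all present and summed to 10440 to 11422 CPM with DMSO and 11224 to 11627 CPM with Rk2, with APOB called higher (log2 fold change 0.61) and FGB lower (-0.27). Of 7 stellate cell and fibroblast markers 5 were counted, summing to 21.1 to 25.1 and 21.1 to 23.7 CPM, and DCN and DES were listed at an FPKM of 0. Of 5 smooth muscle markers 4 were counted and summed to 95.8 to 105 CPM with DMSO and 116 to 124 CPM with Rk2. Nearly all of it was SMTN, which was called higher in counts (0.25) but had a mean FPKM of 36.4 with DMSO and 35.9 with Rk2. CNN1, the only other one tested, went the other way and was not called (log2 fold change -1.09, edgeR adjusted p = 0.0572). ACTG2 was listed at 0 and MYH11 had 0 to 16 counts. Of 5 endothelial markers PECAM1 alone was counted, at 8.34 to 10.0 and 9.02 to 10.8 CPM, and CDH5, VWF, KDR and TEK were listed at 0. Leukocyte markers, mainly CD68, summed to 45.7 to 57.4 and 41.0 to 56.2 CPM, with 3 of 5 counted, PTPRC and CD163 listed at 0, and CD14, at 0.803 and 0.341 CPM, called lower (-1.25). Over the whole table, totals ranged from 16374082 to 30310479 counts and replicate 1 of I/R+DMSO stood apart on the second principal component, at 78.7 against -48.6 to -41.4 for the other three. Without it 5 of the 10 genes were called lower, CYR61 no longer among them, where 884 of 12910 tested genes were called lower.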

How the data were processed

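RNA-seq libraries of HuH7 cells (I/R+DMSO, n = 4, and I/R+Rk2, n = 4) were assigned to groups from the labels. Per the labels, libraries were made with the MGIEasy kit, and the submitters' processing notes name FastQC 0.11.5, HISAT2 2.2.1, StringTie 1.3.3 and hg38. The annotation and the counting tool are not given in the sources used here. The authors deposited raw counts for 15767 genes, not normalized, and FPKM for 19799, a measure scaled for gene length and sequencing depth. Within a gene, FPKM were not in a fixed ratio to the counts. In replicates 1 and 2 of I/R+DMSO, TAGLN was at 117 and 82.8 CPM but at 86.5 and 38.9 FPKM. Mean SMTN went from 99.4 to 119 CPM with Rk2 but from 36.4 to 35.9 FPKM. The cause was not tested, and the gene length implied by both is a median over libraries. Of the symbols, 22 in the counts (0.111% of all counts) and 27 in the FPKM had been turned into dates and were left out. Total counts per library were 16374082 to 30310479.

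The 10 genes, the gene lists and the settings were chosen with earlier results of these data known. The 12910 genes that reached 10 counts in 4 or more libraries were tested with edgeR 4.0.16 in R 4.3.3 (TMM, robust quasi-likelihood, group as the only term), and called at a Benjamini-Hochberg adjusted p below 0.05. In 5 simulations of this comparison with 12910 genes, of which 200 changed by a log2 fold change of 1, edgeR found 154 to 162 (77% to 81%) with 5 to 10 false calls. Smaller changes, such as those of most genes named here, were not simulated, so their recovery is not known. The simulations also held no trend of fold change on gene length, which the data had. The number of false calls under such a trend is therefore not known. Normalized CPM are given as mean ± SD. Replicates differed by more than sampling noise (chi-square per degree of freedom of 22.3 and 19.4). The labels do not say that libraries came from separate cultures, so p-values measure the spread between these libraries, which may be technical. From each gene list the text names up to 5 called genes in each direction, taken by the size of the change, and YAP1, WWTR1, MKL1, MKL2 and the most abundant relatives in any case. A further gene list is not reported here. Other genes are marked as named with their values known.

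Alternatives were DESeq2 1.42.0, library size only, no filter, limma 3.58.1 on log2(FPKM + 1), with and without a minimum mean FPKM of 0.5, or on log2(FPKM + 0.1), a replicate block, a loess correction for gene length (span 0.5) on a length implied by the counts and FPKM, which 99.9% of tested genes had, and leaving out each library. Fold changes on the log2(FPKM + pseudocount) scale understate the change of low genes. Promoters came from RefSeq (GRCh38.p14) and gene positions from GENCODE v29. A comparison of protein sequences was not analysed here, and shared 50-base stretches of transcripts, chosen after seeing the data, were counted in its place.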

Additional observations from a re-analysis of the deposited data

Results flagged for a closer look

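Within groups of 4 libraries, 78 sets of values were checked for a library that stood apart from the other three by Dixon's test at the 95% level, and 3 were found, where chance gives about 1 in 20. VCL was at 320 CPM in replicate 1 of I/R+DMSO, below the 377 to 386 CPM of the others (ratio 0.867), and at 202 CPM in replicate 4 of I/R+Rk2, below 305 to 317 CPM (ratio 0.898). LATS2 was at 68.8 CPM in replicate 2 of I/R+Rk2, above 66.9 to 67.2 CPM (ratio 0.859).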

How the results depend on the processing

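All 10 genes had a log2 fold change below 0 in the 8 other settings and in the 8 fits that left out a library, and MYL9, TAGLN, TPM1 and CTGF were called in all 16. SRF and CYR61 lost their call with limma on FPKM, and SRF also with library size only and with the replicate block, while DESeq2 also called ACTN1 and ANKRD1, and the length correction VCL and ACTN1. Over all genes, 2352 were called (1417 higher, 935 lower), 3008 with DESeq2 (1691 higher, 1317 lower) and 2325 with library size only (1642 higher, 683 lower). The length correction gave 2269 (1027 higher, 1242 lower) and no filter 2111 (1328 higher, 783 lower). Limma on log2(FPKM + 1), on log2(FPKM + 0.1) and without a filter gave 1123, 1106 and 970. Of these 812, 798 and 706 were higher and 311, 308 and 264 lower. These limma fits tested 11852, 11852 and 15729 genes, the edgeR fit with no filter 15745, and the other fits 12910. The 3 limma fits each gave 1 YAP target member lower, 3 other MRTF-SRF targets lower and 0 higher, 0 other YAP-TEAD targets higher, 0 Hippo genes higher, 0 SRF partners lower and 0 focal adhesion genes lower. With DESeq2, 2 early genes, 2 Hippo genes and 2 focal adhesion genes were lower and 2 focal adhesion genes higher. With the length correction, 5 contractile genes, 6 other YAP-TEAD targets, 2 Hippo genes, 1 early gene and 3 focal adhesion genes were lower, and 0 other YAP-TEAD targets and 0 Hippo genes higher. Library size only gave 0 SRF partners and 1 other YAP-TEAD target lower, and no filter 1 other YAP-TEAD target higher.

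Over all tested genes, libraries of the same replicate number varied together little. The correlations of deviations from the group means were 0.0160, -0.0095, 0.0382 and 0.0845, and 1 of 4 libraries correlated best with its own number. A correlation over all genes cannot show whether libraries of a number shared a culture or batch. With the replicate as a block 1815 genes were called (1143 higher, 672 lower), with 0 SRF partners lower, 1 other YAP-TEAD target higher and 2 focal adhesion genes higher. Signs turned for MKL1 with the 3 limma fits (0.093, 0.099 and 0.093), for WWTR1 with these (-0.026, -0.028 and -0.026), with the length correction (-0.072) and without replicate 2 of I/R+Rk2 (-0.0029, against up to 0.045 without another library), and with the length correction for YAP1 (-0.016) and AMOTL1 (-0.10). With 1 library left out, 1295 to 2275 genes were called, the fewest without replicate 4 of I/R+Rk2 (1295), then without its replicates 2 (1477) and 3 (1500). Between 428 and 884 genes were called lower in these fits and between 867 and 1410 higher. The counts ran from 1 to 3 for YAP target members, 1 to 3 lower and 0 to 2 higher for other YAP-TEAD targets, 1 to 2 lower and 1 to 3 higher for Hippo genes, 6 to 8 lower for other MRTF-SRF targets, 0 to 1 lower for SRF partners, 0 to 1 lower for early genes, and 1 to 3 lower and 1 to 2 higher for focal adhesion genes. Causes of these shifts were not tested. Genes below the count filter, ACTA2 among them, were not tested.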
